A study of Mus musculus with 6 samples.

Results

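De novo lipogenesis builds fatty acids from the carbon of sugars and acetate. ATP citrate lyase (Acly) makes cytosolic acetyl-CoA from citrate, the acetyl-CoA carboxylases (Acaca and Acacb) turn it into malonyl-CoA, and fatty acid synthase (Fasn) joins the malonyl units into palmitate with NADPH, part of which comes from malic enzyme (Me1). Elovl6 then lengthens palmitate, and the stearoyl-CoA desaturases Scd1 and Scd2 add a double bond. The genes are switched on by the transcription factors SREBP-1 (Srebf1), which responds to insulin, and ChREBP (Mlxipl), which responds to sugars. Adipose tissue and liver are the tissues in which the pathway is best known. These 10 genes were taken by their NCBI gene identifiers from a table of read counts for 19790 genes, and 10 of 10 were found there. The rule that picks them uses identifiers and no measured value, but the genes were chosen with earlier results of these data known. In GRCm38.p6, Fasn (11:120805958-120825166), Acly (11:100476352-100528000), Acaca (11:84129635-84401651) and Srebf1 (11:60199084-60224186) lie on chromosome 11, and Acacb (5:114146321-114250761) and Mlxipl (5:135089890-135139768) on chromosome 5. Scd2 (19:44293676-44306864) and Scd1 (19:44394450-44407709) are neighbours on chromosome 19, Me1 is at 9:86581363-86695914 and Elovl6 at 3:129532386-129638495. Counts covered the whole gene, so no exon or isoform is told apart.

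RNA-seq had been done on gonadal white adipose tissue (gWAT), the fat pad beside the male reproductive organs, of 6 mice. The labels give the strain C57BL/6 and the genotype Wild-type for every mouse, with 8 weeks of feeding, 3 mice receiving a normal chow diet (NCD) and 3 a high-fat diet (HFD). The labels put the start of the diets at 6 weeks of age, whereas the methods start the HFD at 8 weeks. The methods also use the name WT for mice with floxed Tmem86a and no Cre, and the labels do not say whether the sequenced mice carried those alleles. All mice were male by the methods, and no pooling of animals is described.

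Total counts lay between 49575113 and 66360046 per library. NCD replicate 1 stood apart, because 58.6% of its counts fell on 11 genes of seminal vesicle secretion, while NCD replicates 2 and 3 had 11.2% and 2.30% and the HFD mice nearly none. The diet differences are therefore given with all 6 mice and again without NCD replicate 1. Levels are TMM-scaled CPM, counts relative to library size after edgeR's scaling between libraries, and the diets were compared by the quasi-likelihood test of edgeR, with p-values adjusted after Benjamini and Hochberg over all genes tested and a threshold of 0.05. The defining adipocyte genes Adipoq, Plin1, Cidec and Fabp4 were detected in every library, and 0 of 8 adipocyte genes passed the test with 6 mice, by edgeR or by DESeq2, nor had an unadjusted p under 0.05. With NCD replicate 1 left out, Plin1, Lipe, Pparg and Cebpa were lower on HFD and the other 4 did not pass, where 10.1% of all genes were called lower.

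All 10 lipogenesis genes had a lower fitted level on HFD than on NCD. With 6 mice, Fasn, Acaca, Acly, Scd2, Elovl6 and Me1 fell, whereas Acacb, Scd1, Mlxipl and Srebf1 did not pass the test after adjustment. The 6 of 10 compares with 1.9% of the 15241 genes tested that were called lower and 5.58% that were called higher. In the fit of the other 5 mice, without NCD replicate 1, 10 of 10 genes fell, against 10.1% of 15510 genes called lower and 10.7% called higher. The median log2 fold change of the 10 genes was −3.27 with 6 mice, where the median of all genes was −0.08, and −3.55 without NCD replicate 1, where it was 0.02. For 9 of the 10 genes every HFD mouse lay below every NCD mouse, as it did for 18.7% of all genes tested. When any mouse other than NCD replicate 1 was left out, 0 of 10 passed by edgeR's test. Hardly any gene passed in those 5 fits: of all genes, 1 was called lower in each and 1 to 6 were called higher. The adjusted p of the 6 genes then lay between 0.0548 and 0.191. At an unadjusted p under 0.05, 8 of 10 were lower in each of those fits, where 6.83% to 13.5% of all genes were. DESeq2, run on the 6 mice, called all 10 genes lower, and it called 10.4% of all genes with an adjusted p lower and 12.5% higher. Scaling to the adipocyte genes in place of TMM left 12 calls among all genes, 8.33% of them on the higher side against 74.6%, with Fasn as the only lipogenesis gene called, and no scaling turned the direction of any of the 10.

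**Figure D1:**
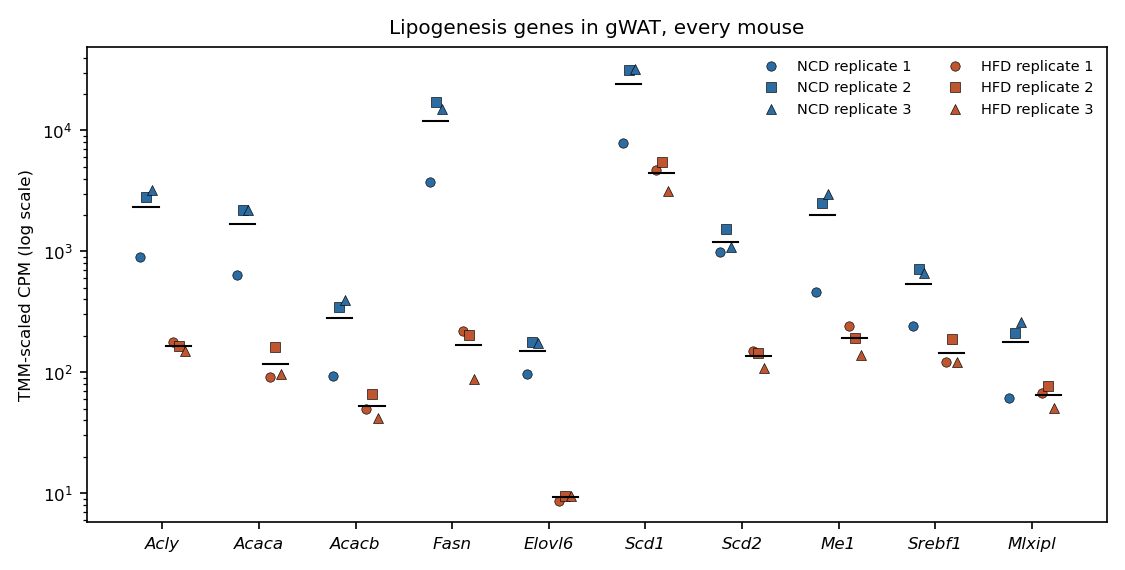
TMM-scaled CPM of each lipogenesis gene (log axis) in every mouse, NCD in blue and HFD in orange, with a bar at the mean of each diet. NCD replicate 1 (blue circle) is the lowest NCD value for all 10 genes, and only for Mlxipl does it reach the HFD values.

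Fatty acid synthase changed most among the 10 genes. Fasn had a TMM-scaled CPM of 3745, 17237 and 14996 in NCD replicates 1, 2 and 3 and of 217, 204 and 87.1 in HFD replicates 1, 2 and 3. The lowest chow-fed mouse was thus far above the highest HFD mouse, although NCD replicate 1 reached 0.232 of the mean of the other chow-fed mice. The mean was 11993 ± 7230 on NCD and 169 ± 71.5 on HFD (SD, n = 3 each), a fitted difference of 70.8-fold, with a log2 fold change of −6.15 ± 0.98 (SE) and an edgeR adjusted p of 0.0253. Without NCD replicate 1 the log2 fold change was −6.56 ± 0.57 (edgeR adjusted p = 0.00544). Fasn took 1.76% and 1.61% of all counts in NCD replicates 2 and 3 but 0.186% in NCD replicate 1, and the HFD mice had 0.0110% to 0.0256%.

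The upstream window of Fasn and both windows of Mlxipl are printed because these genes showed the largest and the smallest difference between the diets, and because ChREBP is made in an alpha and a beta form from alternative first exons, which a single row of counts cannot separate. The sequences come from RefSeq (GRCm38.p6) and give, 5′ to 3′ on the strand of the gene, the 250 bases before an annotated start. The Fasn window and the second Mlxipl window lie inside the gene spans given above, before an inner start. Capitals mark letters matching the SREBP element (TCACNCCAC), the E-box (CACGTG) or the NF-Y box (CCAAT, or ATTGG on the other strand).
Fasn, chr11:120824548-120824797 (minus strand): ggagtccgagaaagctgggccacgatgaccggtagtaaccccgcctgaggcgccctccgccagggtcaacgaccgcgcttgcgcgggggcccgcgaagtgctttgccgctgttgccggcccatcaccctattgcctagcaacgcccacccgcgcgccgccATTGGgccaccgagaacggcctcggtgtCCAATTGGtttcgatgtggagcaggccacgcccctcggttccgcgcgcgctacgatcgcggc
Mlxipl, first start, chr5:135089640-135089889 (plus strand): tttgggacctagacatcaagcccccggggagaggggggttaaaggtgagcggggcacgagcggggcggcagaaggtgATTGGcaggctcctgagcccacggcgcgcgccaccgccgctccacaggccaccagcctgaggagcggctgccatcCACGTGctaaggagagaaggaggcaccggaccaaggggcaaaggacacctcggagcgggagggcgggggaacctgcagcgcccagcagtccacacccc
Mlxipl, second start, chr5:135106641-135106890 (plus strand): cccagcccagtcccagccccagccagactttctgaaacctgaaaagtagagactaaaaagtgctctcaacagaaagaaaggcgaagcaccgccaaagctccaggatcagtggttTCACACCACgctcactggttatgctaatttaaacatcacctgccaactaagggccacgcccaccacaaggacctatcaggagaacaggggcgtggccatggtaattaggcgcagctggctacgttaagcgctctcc
The Fasn window held 3 NF-Y boxes, of which 2 overlap on opposite strands. The first Mlxipl window held an E-box and an NF-Y box, and the second held an SREBP element.

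RefSeq windows were found for 8 of the 10 genes, 12 windows in all, and not for Scd1 and Scd2. For Fasn, Acaca, Acacb and Srebf1 every window lies inside the span of the gene, so the outermost start was not searched. Both strands of the 250 bases were searched for the 3 motifs above and for the GC box (GGGCGG). The NF-Y box was in 6 of 12 windows, from 5 genes, and in 33.9% of the 32851 windows of all genes. The GC box, which SP factors bind, was in 5 of 12 windows, from 4 genes, and in 32.7% of all windows. The SREBP element and the E-box were each in 1 of 12 windows, against 1.05% and 6.02% of all windows. A match is a string of letters and not a measured binding site, and a window without one says nothing about the factor.

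Acly, which supplies the acetyl-CoA, had a TMM-scaled CPM of 892, 2835 and 3186 in the chow-fed mice and of 176, 165 and 149 in the HFD mice. The HFD mice were close to one another, the highest 1.18 times the lowest, and all lay below the chow-fed mice. The gene fell with a log2 fold change of −3.82 ± 0.57 (SE, edgeR adjusted p = 0.0237), and of −4.19 ± 0.21 without NCD replicate 1 (edgeR adjusted p = 0.00446).

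The 2 acetyl-CoA carboxylases, whose product is both the building block of fatty acids and an inhibitor of fatty acid entry into mitochondria, had unequal fitted differences between the diets. Acaca, the cytosolic form, stood at 639, 2200 and 2197 TMM-scaled CPM on NCD and at 91.7, 160 and 96.6 on HFD. It fell with a log2 fold change of −3.85 ± 0.60 (edgeR adjusted p = 0.0253), or −4.23 ± 0.32 without NCD replicate 1 (edgeR adjusted p = 0.00544). Acacb, the form at the mitochondrial surface, had 93.3, 345 and 398 on NCD and 49.6, 65.5 and 41.4 on HFD. Its groups did not overlap, but the log2 fold change of −2.42 ± 0.56 did not pass with 6 mice (edgeR adjusted p = 0.0536). Acacb fell without NCD replicate 1, at −2.82 ± 0.22 (edgeR adjusted p = 0.00544). Per exon length, Acaca exceeded Acacb by 6.32, 5.89 and 5.11 times in NCD replicates 1, 2 and 3 and by 1.71, 2.26 and 2.16 times in HFD replicates 1, 2 and 3. The log2 ratio was therefore 1.51 lower on HFD than on NCD, and every HFD mouse was below every chow-fed mouse. With 3 mice against 3, an exact two-sided permutation test cannot go below 0.1, which is the p of this difference (adjusted p = 0.167 over the 5 pairs of genes compared in this way), and the log2 difference was −1.44 without NCD replicate 1.

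Of the desaturases, Scd1 was the most abundant lipogenesis gene, and Scd2 was the steadier one in TMM-scaled CPM among the chow-fed mice. Relative to adipocyte genes of the same library Scd1 was the steadier one, with a log2 range over the chow-fed mice of 0.33, against 2.17 for Scd2. Scd1 had 7881, 31649 and 32484 TMM-scaled CPM on NCD and 4666, 5474 and 3129 on HFD. NCD replicate 1 was nearer to the HFD mice than to the other chow-fed mice in CPM, and the log2 fold change of −2.44 ± 0.95 did not pass (edgeR adjusted p = 0.151). Without that library Scd1 fell, at −2.85 ± 0.48 (edgeR adjusted p = 0.0155). Scd2 had 982, 1517 and 1077 on NCD and 151, 145 and 109 on HFD, so that NCD replicate 1 reached 0.758 of the mean of the other chow-fed mice, the highest such share among the 10 genes. Scd2 fell with a log2 fold change of −3.14 ± 0.31 (edgeR adjusted p = 0.0192), or −3.25 ± 0.24 without NCD replicate 1 (edgeR adjusted p = 0.00544). The ratio of Scd1 to Scd2 per exon length was 9.06, 23.6 and 34.1 on NCD and 34.96, 42.7 and 32.5 on HFD. These ratios overlapped between the diets (log2 difference 0.91, exact permutation p = 0.2, adjusted p = 0.2), and the log2 difference was 0.36 without NCD replicate 1.

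Elovl6, the elongase of C16 fatty acids, had 96.2, 178 and 176 TMM-scaled CPM on NCD and 8.62, 9.45 and 9.49 on HFD. Its HFD mice differed least among the 10 genes, the highest being 1.10 times the lowest. The log2 fold change was −4.03 ± 0.29 (edgeR adjusted p = 0.0157) with 6 mice and −4.25 ± 0.12 without NCD replicate 1 (edgeR adjusted p = 4e-04). Elovl5, an elongase of polyunsaturated fatty acids, did not pass the test in either comparison (log2 fold changes −0.26 and −0.16, edgeR adjusted p = 0.317 and 0.417). The ratio of Elovl6 to Elovl5 per exon length was 0.260, 0.629 and 0.519 on NCD and 0.0320, 0.0332 and 0.0347 on HFD. On the log2 scale it was lower on HFD by a difference of −3.72, or −4.10 without NCD replicate 1, with no overlap (exact permutation p = 0.1, the smallest possible, adjusted p = 0.167).

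Me1, a cytosolic source of NADPH, had 465, 2507 and 2988 TMM-scaled CPM on NCD and 242, 190 and 138 on HFD. NCD replicate 1 stood at 0.169 of the mean of the other chow-fed mice, the lowest share among the 10 genes, and still lay above the HFD mice. Me1 fell with a log2 fold change of −3.39 ± 0.74, close to the threshold (edgeR adjusted p = 0.0496), and with −3.84 ± 0.30 without NCD replicate 1 (edgeR adjusted p = 0.00544). Idh1, another cytosolic source of NADPH, did not pass with 6 mice (log2 fold change −0.32 ± 0.44, edgeR adjusted p = 0.645) and was lower at −0.67 ± 0.17 without NCD replicate 1 (edgeR adjusted p = 0.0429). Per exon length Me1 exceeded Idh1 by 2.60, 4.96 and 5.25 times in the chow-fed mice, and stood at 0.622, 0.597 and 0.470 of it in the HFD mice. The order of these NADPH enzymes was thus the opposite on the 2 diets, with a log2 difference of −2.87, or −3.19 without NCD replicate 1 (exact permutation p = 0.1, the smallest possible, adjusted p = 0.167).

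The transcription factors had smaller fitted differences than the enzymes, a contrast that was not tested. Srebf1 had 242, 708 and 656 TMM-scaled CPM on NCD and 121, 189 and 121 on HFD. The diets did not overlap, but the log2 fold change of −1.90 ± 0.46 did not pass with 6 mice (edgeR adjusted p = 0.0601). Srebf1 fell without NCD replicate 1, at −2.23 ± 0.24 (edgeR adjusted p = 0.00686). Srebf2, the related factor for cholesterol synthesis genes, did not pass in either comparison (log2 fold changes −0.18 and 0.22, edgeR adjusted p = 0.725 and 0.383). The ratio of Srebf1 to Srebf2 per exon length was 3.05, 14.6 and 19.1 on NCD and 2.51, 3.79 and 2.67 on HFD. NCD replicate 1 lay among the HFD mice, so that the difference of −1.69 on the log2 scale came with overlap (exact permutation p = 0.2, adjusted p = 0.2), and it was −2.51 without that library.

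Mlxipl had 61.0, 213 and 259 TMM-scaled CPM on NCD and 66.7, 76.3 and 50.5 on HFD. It was the only lipogenesis gene whose diets overlapped, since NCD replicate 1 lay between HFD replicates. The log2 fold change was −1.46 ± 0.52 (edgeR adjusted p = 0.131), and without NCD replicate 1 the gene fell at −1.86 ± 0.20 (edgeR adjusted p = 0.00686).

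**Figure D2:**
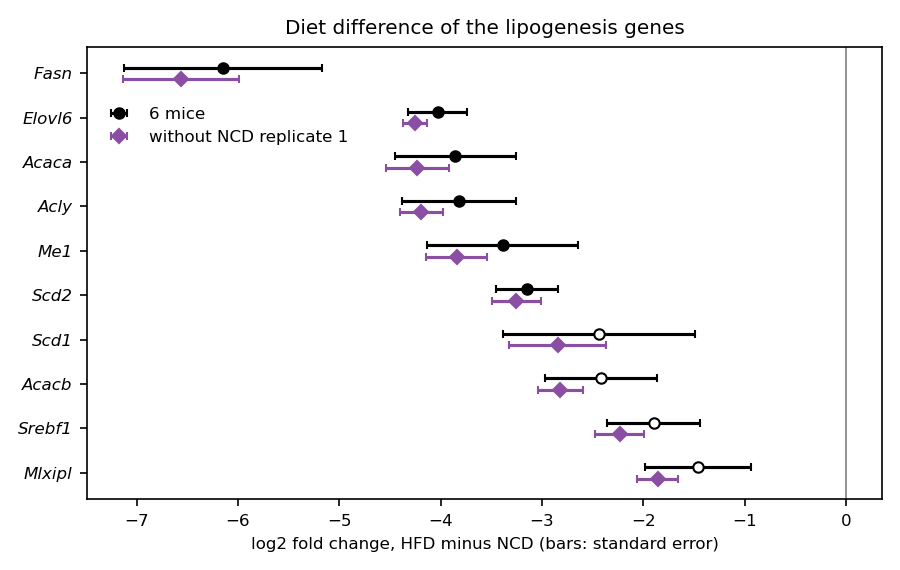
Log2 fold change of each lipogenesis gene, HFD minus NCD, with its standard error, for 6 mice (black circles) and without NCD replicate 1 (purple diamonds). Filled symbols passed an adjusted p of 0.05: 6 of 10 with 6 mice and 10 of 10 without that library, with Fasn farthest from 0 and Mlxipl nearest.

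The order of the genes by abundance also changed. On a scale that allows genes to be compared, FPKM (CPM per kilobase of exon, computed here), Scd1 was first among the 10 genes in all 6 libraries, at 808, 6691 and 7204 on NCD and 1117, 1424 and 819 on HFD. Fasn was second in the 3 chow-fed mice, at 185, 1752 and 1599 FPKM, and sixth, seventh and eighth in HFD replicates 1, 2 and 3, at 25.0, 25.5 and 10.97 FPKM. Among all genes of its library Fasn held place 105, 24 and 23 on NCD and place 2725, 2868 and 5963 on HFD. Scd1 held place 21, 8 and 5 on NCD and 30, 16 and 36 on HFD.

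On HFD the second place went to Me1 in all 3 mice, between 48.4 and 77.6 FPKM, above Acly at 41.0 to 44.9 FPKM in each of them. Acly and Srebf1 (32.6 to 55.1 FPKM) exchanged places between HFD mice, and Fasn exchanged places with Mlxipl (17.7 to 26.5 FPKM) and with Acaca (11.2 to 21.2 FPKM), so that these pairs did not differ beyond their spread. Mlxipl was above Acaca in each HFD mouse. In the chow-fed mice Me1 and Acly exchanged places, and so did Scd2 and Acaca. Acacb and Elovl6 held the last 2 places in all 6 libraries, Elovl6 with 1.62 to 1.96 FPKM on HFD. FPKM is relative to all counts of a library, so the seminal vesicle genes lower every value of NCD replicate 1. Together the 10 genes took 0.748%, 6.07% and 6.26% of the counts on NCD and 0.670%, 0.839% and 0.497% on HFD. With the seminal vesicle genes taken out of the total, NCD replicate 1 rose to 1.80%.

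Levels were therefore also set against the adipocytes' own genes within each library, as log2 CPM minus the mean log2 CPM of Adipoq, Plin1, Cidec, Fabp4, Lipe, Pnpla2, Pparg and Cebpa. On this scale every HFD mouse lay below every chow-fed mouse for all 10 genes, including Mlxipl. Fasn stood at 3.52, 3.78 and 3.21 on NCD and at −2.09, −2.27 and −3.03 on HFD, a difference of −5.96 that remained at −5.96 without NCD replicate 1. The range of its chow-fed mice shrank from 2.202 in log2 CPM to 0.57. Mlxipl stood at −2.42, −2.56 and −2.65 on NCD and at −3.79, −3.68 and −3.82 on HFD, a difference of −1.22. Of the enzymes, the differences were −3.68 for Acaca, −3.60 for Acly, −3.02 for Me1, −2.20 for Scd1 and −2.17 for Acacb, and Srebf1 differed by −1.76. Each of these has an exact permutation p of 0.1, the smallest that 3 mice against 3 allow. The 8 adipocyte genes had a median log2 fold change of −0.85 themselves without NCD replicate 1, with 4 called lower. In that comparison the differences relative to them were smaller than in CPM, at −5.96 against −6.56 for Fasn and −1.16 against −1.86 for Mlxipl.

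Scd2 and Elovl6 did not follow the adipocyte genes among the chow-fed mice. Relative to those genes Scd2 stood at 1.58, 0.27 and −0.59 in NCD replicates 1, 2 and 3, and the range of 2.17 was wider than in log2 CPM (0.63). Elovl6 stood at −1.77, −2.82 and −3.20, with a range of 1.44 against 0.89. Like Acaca, Acacb, Acly, Srebf1 and Mlxipl, whose ranges were narrower, both were highest in NCD replicate 1, the library richest in seminal vesicle RNA. The differences between the diets were −3.12 for Scd2 and −3.96 for Elovl6 and became −2.53 and −3.55 without that library.

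**Figure D3:**
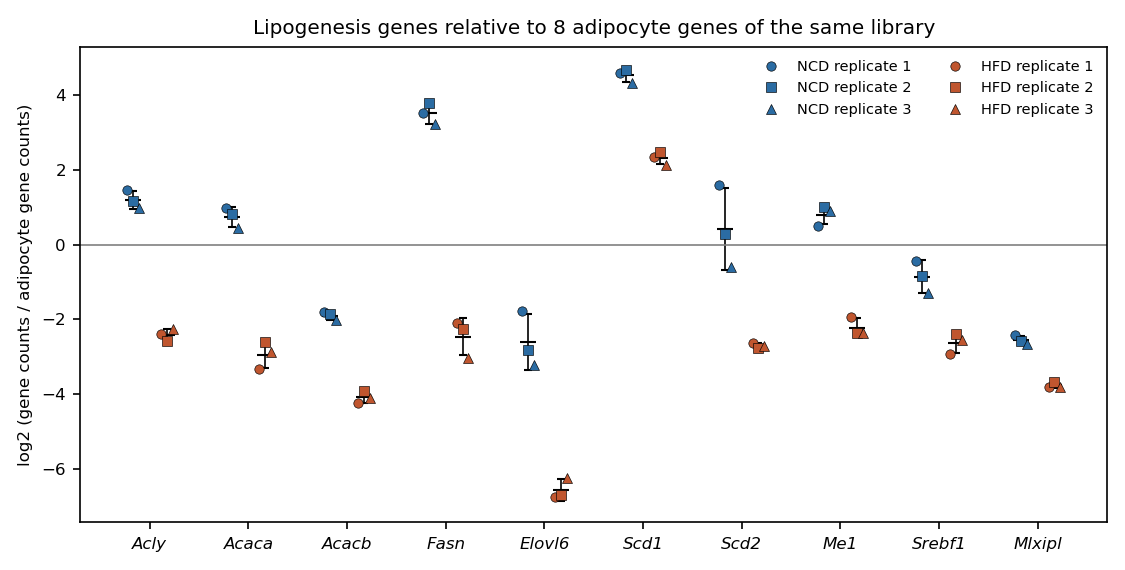
Level of each lipogenesis gene relative to 8 adipocyte genes of the same library (log2, no unit), NCD in blue and HFD in orange, with mean and SD over the 3 mice of a diet. The chow-fed mice are close together for Fasn and Mlxipl and spread for Scd2 and Elovl6, and every HFD point is below the chow-fed points of its gene.

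Macrophage marker RNA also differed between the diets. The summed TMM-scaled CPM of 8 macrophage genes was 209 to 464 on NCD and 1493 to 2236 on HFD, and none of the 8 was at 0 in every library. With 6 mice 4 of 8 were higher (Adgre1, Cd68, Itgam and Trem2), against 5.58% of all genes. Without NCD replicate 1, 8 of 8 were higher, against 10.7%. The sum of the 8 adipocyte genes was 3726, 14423 and 19851 on NCD and 11412 to 14829 on HFD. Sums of 6 smooth muscle and 6 epithelial genes were highest in NCD replicate 1, at 6539 and 1212, against 216 to 768 and 33.7 to 141 in the other 5 mice. The part of these cells in the differences above was not tested. In tissue RNA, fewer cells of a type and less RNA of a gene per cell cannot be told apart.

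The genes that supply acetyl-CoA and NADPH were lower on HFD in part. Of 12 listed and tested, 4 fell and 8 did not pass with 6 mice, where 1.9% of all genes were called lower. The median log2 fold change of the 12 was −0.99. Acss2, which makes acetyl-CoA from acetate, had 160, 596 and 620 TMM-scaled CPM on NCD and 31.9, 35.6 and 21.6 on HFD, and fell with a log2 fold change of −3.95 ± 0.59 (edgeR adjusted p = 0.0238). Slc25a1, the carrier that brings citrate out of mitochondria, fell at −3.17 ± 0.65 (edgeR adjusted p = 0.0429). Tkt of the pentose phosphate pathway fell at −2.59 ± 0.57 (edgeR adjusted p = 0.0495), and Mdh1, the cytosolic malate dehydrogenase, at −1.69 ± 0.30 (edgeR adjusted p = 0.0302). These 4 were lower without NCD replicate 1 too, at −4.34 for Acss2, −3.59 for Slc25a1, −2.97 for Tkt and −1.70 for Mdh1.

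Without NCD replicate 1, 10 of these 12 genes were lower, against 10.1% of all genes, with a median of −1.27. Pcx, the pyruvate carboxylase, was then lower at −3.02, Taldo1 at −1.28, Pgd at −1.27, Rpe at −1.25 and Rpia at −0.57 (edgeR adjusted p between 0.00654 and 0.0469). G6pdx, the first enzyme of the pentose phosphate pathway, did not pass in either comparison (log2 fold changes 0.17 ± 0.40 and −0.12 ± 0.27), and neither did Pgls (−0.19 and −0.18).

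Few other genes of elongation and desaturation passed edgeR's test with 6 mice. Of 17 listed, 15 were tested, 1 fell and 14 did not pass, at a median of −0.71, where 1.9% of all genes were called lower. At an unadjusted p under 0.05, 5 were lower and 2 higher, against 13.7% and 16% of all genes. DESeq2 called 4 lower and 2 higher, against 10.4% and 12.5%. The gene that fell by edgeR's test was Fads2, the delta-6 desaturase of polyunsaturated fatty acids. It had 30.8, 25.4 and 14.7 TMM-scaled CPM on NCD and 5.93, 7.05 and 4.40 on HFD (log2 fold change −2.03 ± 0.34, edgeR adjusted p = 0.0284). Without NCD replicate 1, 16 were tested, Fads2 was lower at −1.77, and Fads1 (−1.93), Tecr (−1.21), Hsd17b12 (−1.08) and Hacd2 (−1.04) were lower as well. Of all genes, 10.1% were called lower and 10.7% higher in that fit. Hacd4 was higher there, at 1.61 ± 0.27 (edgeR adjusted p = 0.015), from 7.26 and 4.43 CPM in NCD replicates 2 and 3 to 15.8 to 20.8 on HFD.

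Among 23 genes that control lipogenic genes or acetyl-CoA carboxylase, 5 fell and 18 did not pass with 6 mice, at a median of −0.19. Of all genes, 1.9% were called lower. Thrsp, also called Spot 14 and known as a lipogenic protein of fat and liver, had 605, 2091 and 3013 TMM-scaled CPM on NCD and 155, 111 and 34.4 on HFD, and fell at −4.25 ± 0.85 (edgeR adjusted p = 0.0417). Pnpla3, a lipid droplet protein and target of SREBP-1, fell at −3.57 ± 0.65 (edgeR adjusted p = 0.0335). Mid1ip1, the paralog of Thrsp that promotes assembly of acetyl-CoA carboxylase, fell at −1.90 ± 0.38 (edgeR adjusted p = 0.0417). Prkaa2, a catalytic subunit of the AMP-activated kinase that inhibits the carboxylases, fell at −1.49 ± 0.29 (edgeR adjusted p = 0.0398). Mlx, the partner with which ChREBP binds DNA, had 50.2, 57.8 and 47.8 on NCD and 26.8, 27.4 and 31.2 on HFD and fell at −0.87 ± 0.14 (edgeR adjusted p = 0.0277).

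Of the 23, 7 were lower and 1 was higher without NCD replicate 1, against 10.1% and 10.7% of all genes, and the median was −0.09. The 5 genes above were among those lower, at −4.66 for Thrsp, −3.96 for Pnpla3, −2.20 for Mid1ip1, −1.69 for Prkaa2 and −0.88 for Mlx. Insig1, which holds SREBP in the endoplasmic reticulum, was then lower at −2.33 ± 0.22 (edgeR adjusted p = 0.00611), and Prkag2 at −0.61 ± 0.15 (edgeR adjusted p = 0.0413). Txnip, a target of ChREBP in many cells, was higher at 1.07 ± 0.26 (edgeR adjusted p = 0.0407), the opposite direction to Mlxipl. In the list for fatty acid synthesis in mitochondria and handling of malonyl-CoA, 0 of 9 passed with 6 mice by edgeR's quasi-likelihood test (median −0.60). At an unadjusted p under 0.05, 5 of 9 were lower, against 13.7% of all genes, and by DESeq2 1 of 9, against 10.4%. Without NCD replicate 1, 6 of these 9 were lower, against 10.1% of all genes. They were Ndufab1 at −1.23, Mecr at −1.003, Acsf3 at −0.92, Cbr4 at −0.78, Mcat at −0.77 and Mlycd at −0.51. Over the 4 lists, 10 of 59 genes tested were lower and 0 were higher with 6 mice by edgeR's test, against 1.9% and 5.58% of all genes. At an unadjusted p under 0.05, 25 were lower and 3 higher, against 13.7% and 16% of all genes, and DESeq2 called 20 lower and 3 higher, against 10.4% and 12.5%. With NCD replicate 1 left out, edgeR called 28 of 60 lower and 2 higher, against 10.1% and 10.7%.

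**Figure D4:**
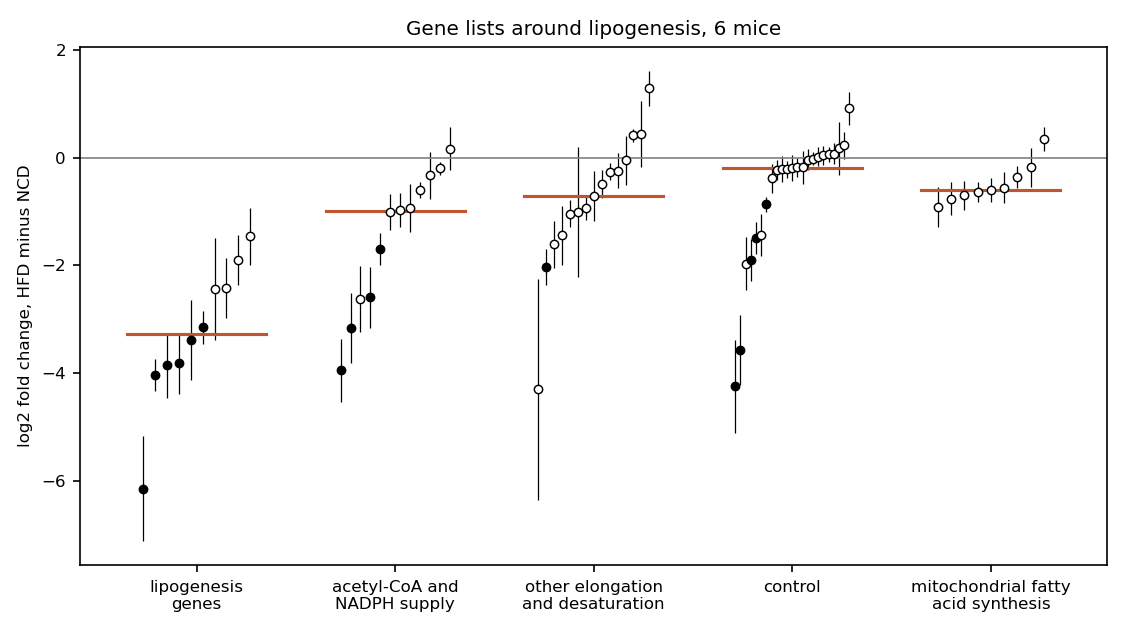
Log2 fold change, HFD minus NCD, with standard error, of the 10 lipogenesis genes and of the tested genes of 4 lists around them (6 mice). Each point is a gene, filled where its adjusted p passed 0.05, and the orange line is the median, −3.27 for the lipogenesis genes and −0.99, −0.71, −0.19 and −0.60 for the lists from left to right.

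The genes whose profile over the 6 mice was most like that of Fasn were sought among 9893 genes with a mean of at least 10 CPM. The measure was the root mean square distance between log2 TMM-scaled CPM profiles, each centred on its own mean, with 0.5 CPM added before the log2. Thrsp was nearest (0.94), followed by Cyp2e1 (1.10), Acss2 (1.15), Scd3 (1.19), Elovl6 (1.20), Atp6v0c-ps2 (1.20), Acaca (1.22) and Acly (1.24). The places of Scd3 and Atp6v0c-ps2 depend on the added 0.5, since HFD values of both were at or near 0. The fitted log2 fold change of Atp6v0c-ps2 was −11.1, far from that of Fasn. Of the other lipogenesis genes, Me1 was in place 12, Scd2 in place 14, Scd1 in place 39, Acacb in place 43, Srebf1 in place 70 and Mlxipl in place 202. Cyp2e1, a cytochrome P450, had 624, 1265 and 4166 TMM-scaled CPM on NCD and 43.4, 168 and 39.8 on HFD, with a log2 fold change of −4.59 that did not pass (edgeR adjusted p = 0.0513), and it was lower at −5.01 without NCD replicate 1 (edgeR adjusted p = 0.0176).

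Some of these genes share sequence with other genes, and the sources used here do not say how reads matching several genes were assigned. Scd3, another desaturase, had 457, 2901 and 1655 counts on NCD and 275, 0 and 0 on HFD and did not pass (edgeR adjusted p = 0.22), and it is the gene with which Scd1 shared most 75-base words of its transcripts, 3.15% of them being shared with any other gene. The pseudogene Atp6v0c-ps2 had 110, 133 and 139 TMM-scaled CPM on NCD and 0.0347, 0.0479 and 0.0797 in the HFD mice, whereas Atp6v0c, the gene it resembles, had 4.38, 4.42 and 4.95 on NCD and 262, 205 and 259 on HFD. The counts of that pair thus lay mostly on different copies in the 2 diets, although only 9.24% of the 75-base words of Atp6v0c were shared with Atp6v0c-ps2. Whether the libraries of both diets were counted with the same settings and annotation is not stated and was not tested. Such a difference would follow the diet and could not be told apart from it for any gene. How reads matching several genes were assigned bears on genes that share sequence with others, among them Acaca, Me1 and Scd3. Fasn, Acacb and Acly shared 0% of such words with another annotated gene, Srebf1 0.598%, Scd2 1.78%, Elovl6 2.05% and Mlxipl 2.72%. The shares were 20.0% for Me1 and 26.8% for Acaca, where 69.4% of the shared words of Me1 were found in Gm7049 and 98.0% of those of Acaca in Gm5182. With regard to shared sequence, the levels of Me1 and Acaca are therefore less certain than those of the other 8 genes.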

How the data were processed

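RNA-seq libraries of gWAT from 6 mice were analysed as 2 groups of 3, named by diet and replicate as in the sample titles. The count column of HFD replicate 3 bears a number other than 3. Whether a further HFD mouse was left out is not stated. Per gene, listed by NCBI identifier, the authors deposited counts of reads that they had not normalized. The submitters' processing notes name bcl2fastq 2.20.0, Trimmomatic, HISAT2 2.1.0, StringTie 1.3.4d, DESeq2 and the builds mm10 and GRCm38; how reads matching several genes were counted, and whether strand was used, are not stated in these sources. Every column had a sample (0 were left unused). Of 19790 identifiers, 19742 were paired with a symbol, and the other 48 held 0.629% of the counts.

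In edgeR 4.0.16 (R 4.3.3), genes of low count were removed by filterByExpr (minima of 10 per library and 15 in total), TMM factors were set and the quasi-likelihood test was run on the 15241 genes left, with adjustment after Benjamini and Hochberg over these. The standard error is the size of the log2 fold change over the square root of F. FPKM used exon unions of GENCODE vM21 basic transcripts, found for 17793 genes. Ratios within a library were compared with exact two-sided permutation tests (scipy 1.17.1), for which 3 against 3 cannot go below 0.1. Depth was 49575113 to 66360046 counts per library. No library was a second deposit of another of the same diet (chi-square over its degrees of freedom 111 to 3438), and libraries of different diets were not compared in this way.

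The 10 genes, the 4 lists around them and the markers were chosen with earlier results of these data known. Genes named are the 10, in each list those past an adjusted p of 0.05 with 6 mice and up to 6 more past it without NCD replicate 1, the partners of the 5 pairs, and the 8 genes most like Fasn. G6pdx, Pgls and Atp6v0c were added after their values were seen. Alternatives were no filter, median-of-ratios scaling, total counts with and without seminal vesicle genes, scaling to 8 adipocyte genes, DESeq2 1.42.0, each mouse left out, and the replicate number as a block.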

Additional observations from a re-analysis of the deposited data

How the results depend on the processing

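All 10 lipogenesis genes kept a lower level on HFD under all 14 alternatives tried, with log2 fold changes from −6.56 to −5.79 for Fasn, −4.25 to −3.54 for Elovl6, −2.85 to −2.13 for Scd1, −2.23 to −1.54 for Srebf1 and −1.86 to −1.07 for Mlxipl. What changed was the number of calls. With 6 mice, 1139 genes of all, 6 of the 10 and 10 of the pathway genes passed. DESeq2 gave 3853, 10 and 23, with no adjusted p for 2276 genes and 54.5% of calls on the higher side, against 74.6%. Scaling to the adipocyte genes gave 12, 1 and 0 with 6 mice and 5402, 10 and 23 without NCD replicate 1 (91.0% higher), and moved the median of all genes to −0.39 and 0.73. Total counts moved it to 0.45 and left 2 pathway genes, and no filter left 6. With 1 mouse left out, the calls ran from 2 to 3234 of all genes, from 0 to 10 of the 10 and from 0 to 30 of the pathway genes; the high ends are without NCD replicate 1 (51.5% higher), and in the other 5 fits 0 of the 10 passed, the cause of which was not tested.

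Replicate numbers did not pair the mice (correlations of same-numbered deviations −0.05, −0.031 and −0.0068, each below another pairing of the same mouse). With the replicate block, 12 genes of all, 0 of the 10 and 0 pathway genes passed, with 8 of the 10 lower at an unadjusted p under 0.05 and an adjusted p of 0.0605 for Elovl6 and 0.0868 for Fasn. The differences of the 5 pairs of genes and the levels relative to adipocyte genes kept their direction under each alternative run for them, and with 3 mice against 3 their tests could not pass 0.05 under any.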
